A study of Malus hupehensis with 3 samples.

Results

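The mdm-miR171 miRNAs of *Malus hupehensis* leaves and the gene models paired with them were examined. All deposited names that start with mdm-miR171 were taken, 15 of the 207 known miRNA names, and these stood for 8 of the 85 distinct known mature sequences, the most of any of the 43 known families. Every gene model paired with one of these names in the degradome records was included, which gave 4 of the 129 gene models of known miRNAs. *M. hupehensis* is an apple rootstock that sets most of its seed without fertilisation, so its trees are close to uniform. Adult phase leaves (A) came from the tops, and juvenile phase leaves (J) from the base, of 18 trees aged 6 years, for which the labels name no treatment. The leaves were pooled, giving 1 small RNA library for A, 1 for J and 1 degradome library for J. Phase, place on the tree and library therefore cannot be told apart, no spread between samples exists, and the values below describe these libraries. All intervals are exact 95% limits (Clopper-Pearson) that cover counting error only and take each read as an independent draw. PCR copies of 1 molecule could not be recognised, so the intervals may be too narrow even for that error.

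Plant miRNAs guide an ARGONAUTE protein to closely complementary mRNAs, and the mRNA is cut between the bases opposite bases 10 and 11 of the miRNA. A degradome library sequences the uncapped 3′ fragments left by such cuts, so the first base of a fragment marks the site. In *Arabidopsis*, miR171 targets GRAS family transcription factors of the HAIRY MERISTEM (SCARECROW-LIKE 6) group, which keep shoot meristem cells undifferentiated and also affect branching. The miRNA and this group of targets are conserved widely among land plants.

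The 8 mature sequences are shown because the start of each one sets which base of the target lies opposite its base 10. Each is printed 5′ to 3′ with the seed, bases 2 to 8, in capitals. Those of the first group, which start with UUGAGCC, all had the seed UGAGCCG:
mdm-miR171a and mdm-miR171b: uUGAGCCGcgucaauaucucc
mdm-miR171j, mdm-miR171k and mdm-miR171l: uUGAGCCGcgccaauaucacu
mdm-miR171f: uUGAGCCGugccaauaucacg
mdm-miR171m and mdm-miR171n: uUGAGCCGugccaauaucaca
Those of the second group had the same core but started 3 bases earlier, which gave the seed GAUUGAG:
mdm-miR171c, mdm-miR171d and mdm-miR171e: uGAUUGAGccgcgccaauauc
mdm-miR171g and mdm-miR171h: uGAUUGAGccgugccaauauc
A pair of sequences had other starts and a seed of their own:
mdm-miR171i: uGAGCCGAaccaauaucacuc
mdm-miR171o: uGGGAUGUugguaugguucaa

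With positions counted from 1 at the 5′ end of mdm-miR171j, the mdm-miR171a sequence differed from it by C11U, A19U and U21C. The mdm-miR171f sequence differed by C9U and U21G, and the mdm-miR171m sequence by C9U and U21A. The 18 bases that mdm-miR171c shares in place with mdm-miR171j were all the same, so these differ by the shift of the start alone. The same shift relates mdm-miR171g, which carries C9U, to mdm-miR171f and mdm-miR171m. The mdm-miR171i sequence started 1 base after mdm-miR171j and differed by C9A and G10A. The mdm-miR171o sequence could not be placed in this alignment. Laid antiparallel on mdm-miR171m it formed 16 Watson-Crick pairs, 4 G:U pairs and 1 mismatch, which describes the letters only.

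The mdm-miR171a sequence made up most of the family in both libraries, and mdm-miR171c most of the rest. The sequence of mdm-miR171a and mdm-miR171b had 312 reads in the A library, against 439 in the J library. Scaled to 1000000 clean reads of each library (RPM), these were 19.2 RPM in A and 32.4 RPM in J. The sequence of mdm-miR171c, mdm-miR171d and mdm-miR171e had 85 reads, or 5.24 RPM, in A and 66 reads, or 4.87 RPM, in J. Thus the main sequence had the lower RPM in A, whereas the shifted one had about the same RPM in A as in J.

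The other 6 sequences had fewer than 10 reads in each library, 13 in A and 15 in J in all. Of these, mdm-miR171j had 9 reads in each library. There was 1 read of mdm-miR171m in A against 3 in J, and no read of mdm-miR171f in A against 3 in J. Reads in A only were counted for mdm-miR171i, with 1 read, and mdm-miR171o, with 2. No read was counted for mdm-miR171g and mdm-miR171h in either library. A count of 0 allows up to 3 reads, or 0.185 RPM in A and 0.221 RPM in J, so none of these single-digit differences could be told from counting error.

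The make-up of the family differed between the libraries by more than the counting error that the intervals cover. The mdm-miR171a sequence held 76.1% of the mdm-miR171 reads in A (71.7 to 80.1) and 84.4% in J (81.0 to 87.4). The share of mdm-miR171c was 20.7% in A (16.9 to 24.98) and 12.7% in J (9.95 to 15.9). The intervals of A and J did not overlap for either sequence. There were 3.67 reads of mdm-miR171a for each read of mdm-miR171c in A and 6.65 in J. These shares do not depend on how the libraries are scaled to each other, but with 1 library per phase no test of the phase was possible.

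**Figure D1:**
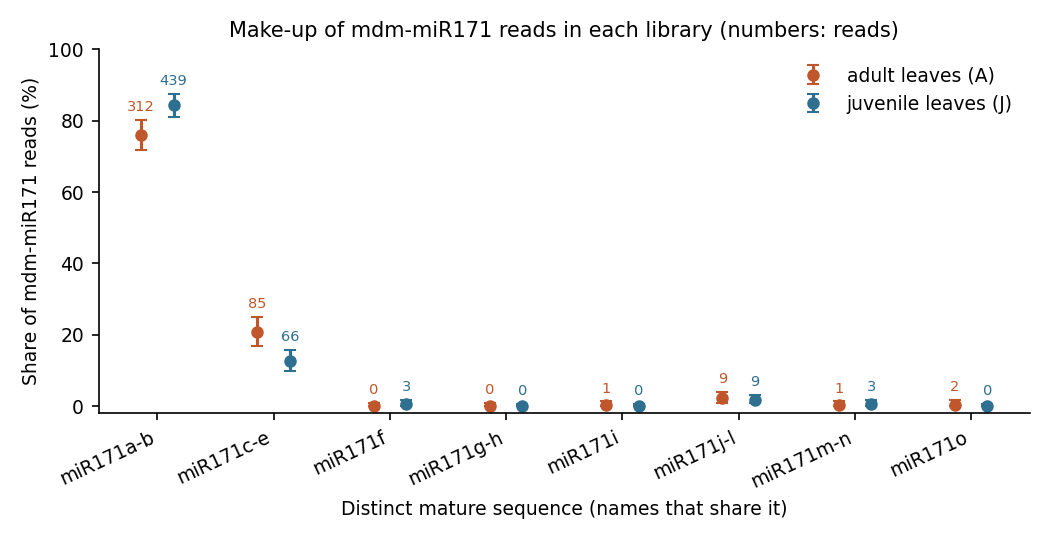
Share of the mdm-miR171 reads (%) held by each of the 8 distinct sequences in adult (A) and juvenile (J) leaves, with exact 95% intervals and the read count above each point. The shares of mdm-miR171a and mdm-miR171b are 76.1% in A and 84.4% in J, those of mdm-miR171c to mdm-miR171e are 20.7% and 12.7%, and the other 6 sequences lie near 0.

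Names that share a sequence were listed as separate entries, and their counts were not always the same. The 2 entries of the mdm-miR171a sequence had 303 and 312 reads in A, against 431 and 439 in J. The 3 entries of the mdm-miR171j sequence had 7, 9 and 9 reads in A and 9 each in J. The 3 entries of the mdm-miR171c sequence were equal to each other in each library. Each sequence was therefore counted once, at its largest entry, and the spread between entries was far below the difference between mdm-miR171a and mdm-miR171c.

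As the sum over its sequences, mdm-miR171 had 410 reads (25.3 RPM) in A and 520 reads (38.4 RPM) in J. The ratio of A over J was 0.659 (0.577 to 0.751). For the mdm-miR171a sequence the ratio was 0.594 (0.512 to 0.688), and for mdm-miR171c it was 1.08 (0.771 to 1.51), an interval that included 1. The 4 sequences that start with UUGAGCC together had 322 reads in the A library against 454 in the J library, and their ratio was 0.592 (0.512 to 0.685). To be called different, a sequence or family needed 10 or more reads in a library, an interval that left out 1, and a ratio of 2 or more in either direction. The family was not called, nor was either of its 2 sequences with 10 or more reads in a library. Over all known miRNAs, 45.8% of the 59 sequences with 10 or more reads in a library were called (8.47% of the 59 were higher in A and 37.3% higher in J), and so were 50% of the 38 families.

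The direction of the family ratio depended on the scale of the libraries. The 56 known sequences that reached 10 reads in each library had a median log2 ratio of A over J of -0.69 under clean reads, and 41 of them had a ratio below 1. With the median ratio of these sequences set to 1, the mdm-miR171 ratio was 1.06 (0.931 to 1.21). The mdm-miR171a sequence then had 0.957 (0.825 to 1.11) and mdm-miR171c had 1.73 (1.24 to 2.43). When scaled by known miRNA totals, the family ratio was 1.55 (1.36 to 1.76), and mdm-miR171c, at 2.53 (1.81 to 3.54), was called higher in A. The mdm-miR171 reads were 0.0523% of all known miRNA reads in A (0.0474 to 0.0576) and 0.0338% in J (0.0309 to 0.0368). The ratio of mdm-miR171c lay above that of mdm-miR171a under each scale, because scaling moves both alike.

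**Figure D2:**
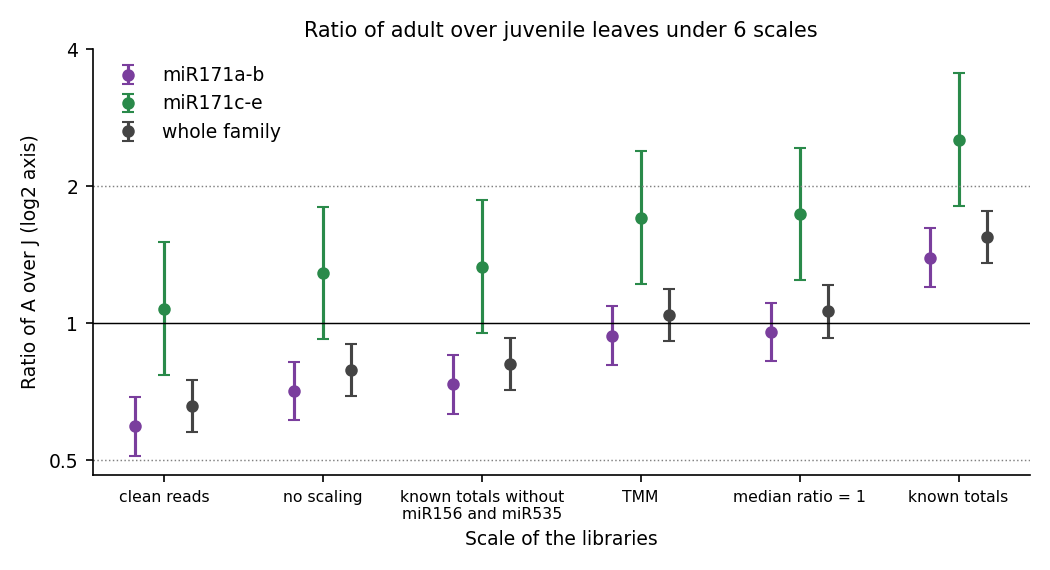
Ratio of A over J (log2 axis) of the mdm-miR171a sequence, the mdm-miR171c sequence and the whole family under 6 scales of the libraries, with exact 95% intervals; the solid line marks 1 and the dotted lines 0.5 and 2. The family ratio runs from 0.659 under clean reads to 1.55 under known miRNA totals. The only point past a dotted line is mdm-miR171c under known totals, at 2.53. The upper limits of mdm-miR171c also pass 2 under the median scale (2.43) and under TMM in edgeR (2.39).

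Among the 43 known families, mdm-miR171 ranked 18th by reads in A and 19th by reads in J. Of the 32 other families with a ratio and 50 or more reads in all, the nearest in log2 ratio to mdm-miR171, at -0.60, were mdm-miR168 at -0.58, mdm-miR1511 at -0.55 and mdm-miR390 at -0.68. The interval of the mdm-miR171 ratio overlapped those of all 3, and likeness over 2 libraries is a description only. A list of 13 families whose known plant targets are transcription factors, mdm-miR171 among them, was set beside all known families, the listed ones included. Of the 12 with 10 or more reads in a library, 0 were higher in A by this call and 6 were higher in J, and mdm-miR171 was among the 6 not called. The shares over all 38 families were 10.5% higher in A and 39.5% higher in J. The median ratio of A over J was 0.525 for the 11 families of the list that had 10 or more reads in a library and reads in both, and 0.574 for all 37 known families that met the same limits.

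In the degradome records, 14 of the 15 names and 7 of the 8 sequences were paired with the same 4 gene models, MDP0000151144, MDP0000784909, MDP0000274120 and MDP0000275704, in 108 records. All 4 are annotated by the study as GRAS family transcription factors, MDP0000784909 after another *Arabidopsis* gene than the other 3. The name without a record was mdm-miR171o. No other known or predicted miRNA had a record on these 4 gene models.

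Each gene model was listed with a pair of sites 3 bases apart. In MDP0000151144, with a coding length of 2400 bases, these were bases 1388 and 1391, and in MDP0000784909, with 2247 bases, they were 1235 and 1238. The sites were bases 1916 and 1919 of the 2943 in MDP0000274120, and 1364 and 1367 of the 2385 in MDP0000275704. Positions count from 1 at the start of each gene model, all listed on the plus strand, and coordinates in the genome were not analysed here. All 8 sites fell on the second base of a codon, and 1012 bases followed the upstream site in both MDP0000151144 and MDP0000784909, 1027 in MDP0000274120 and 1021 in MDP0000275704. The coding lengths thus differed mainly by the number of bases before the site. Bases outside the stretch around the sites were not compared between gene models.

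The target stretch is shown because all 4 gene models share it but for its last base. The 34 bases run 5′ to 3′, and the capitals mark the base of the upstream site, the base of the downstream site and the last base:
MDP0000151144 and MDP0000784909: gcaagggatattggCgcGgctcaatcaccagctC
MDP0000274120 and MDP0000275704: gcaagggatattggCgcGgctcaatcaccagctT
The first 33 bases were the same in all 4. A degradome tag that begins at the upstream site reaches the differing base as its 20th base, and one that begins at the downstream site as its 17th. Gene models within each line could not be told apart over this stretch.

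The upstream site had a count of 793 in MDP0000151144 and of 793 in MDP0000784909, with 76 in each at the downstream site. In MDP0000274120 and MDP0000275704 the counts were 39 in each at the upstream site and 32 in each at the downstream site. Because the counts are equal within each pair of gene models with the same target stretch, each may stand for 1 set of reads listed for both. The upstream site therefore had the larger count in all 4 gene models, but by different margins.

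In MDP0000151144 and MDP0000784909, 91.3% of the counts at both sites were at the upstream one (89.2 to 93.0), or 10.4 for each count downstream. In MDP0000274120 and MDP0000275704 it was 54.9% (42.7 to 66.8), or 1.22 for each count downstream. The intervals of these shares did not overlap, and the second included an even split. No site with a count below 25 was listed. Gene models with as few counts as the second pair could therefore be listed with both sites only at shares well below 91.3%. Counts at both sites came to 869 in the first pair of gene models and 71 in the second.

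**Figure D3:**
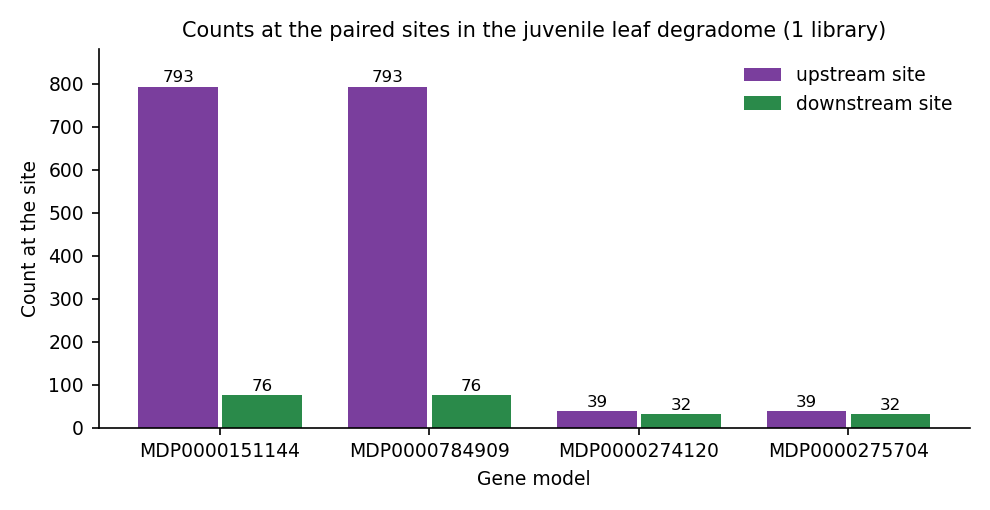
Count at the upstream and the downstream site of each gene model in the 1 juvenile leaf degradome library. Bars start at 0 and carry no error because the library had no replicate; the upstream bars reach 793 in MDP0000151144 and MDP0000784909 and 39 in MDP0000274120 and MDP0000275704, beside 76 and 32 downstream.

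The pair of sites matched the 2 starts of the mature sequences. For the sequences that start with UUGAGCC (mdm-miR171a, mdm-miR171f, mdm-miR171j and mdm-miR171m), base 10 lay opposite the upstream site in all 4 gene models. For those that start 3 bases earlier (mdm-miR171c and mdm-miR171g), base 10 lay opposite the downstream site in all 4. The base opposite base 10 of mdm-miR171i was 1 base before the upstream site, where no site was listed. The authors listed 6 of the 8 sequences at both sites, mdm-miR171i at the upstream site only and mdm-miR171o at neither. Of the 108 records, 52 (48.1%) had the site opposite base 10 of the named miRNA. For the other known miRNAs this was 785 of 1417 (55.4%). A sequence listed at both sites can have only 1 of them opposite its base 10, so the 48.1% follows from the listing itself.

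**Figure D4:**
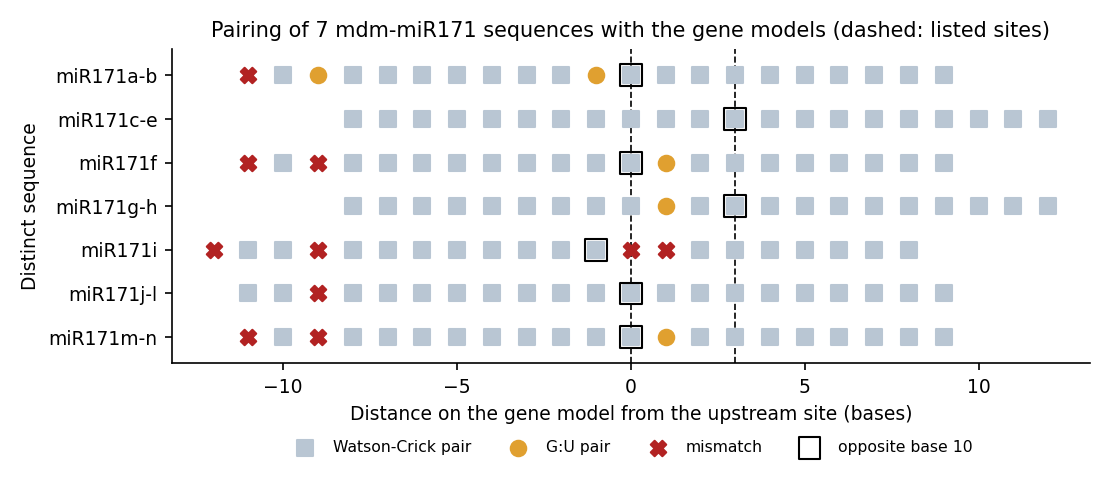
Pairing of 7 distinct mdm-miR171 sequences (rows) with the shared target stretch, against distance in bases from the upstream site; grey squares are Watson-Crick pairs, orange circles G:U pairs, red crosses mismatches, and outlined squares the base opposite base 10. The outlined squares of 4 rows lie on the upstream site at 0 and those of mdm-miR171c and mdm-miR171g on the downstream site at 3, and the row of mdm-miR171i has none on either.

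The closest pairing belonged to the less abundant start. The authors' score equalled 1 for each mismatch plus 0.5 for each G:U pair in all 2204 records of the file. The mdm-miR171c sequence paired at all 21 bases, a score of 0, and mdm-miR171g had a single G:U pair at its base 12, a score of 0.5. The mdm-miR171j sequence scored 1, with a mismatch at base 19. The most abundant sequence, mdm-miR171a, scored 2, with a mismatch at base 21 and G:U pairs at bases 11 and 19. The mdm-miR171f and mdm-miR171m sequences scored 2.5 each and mdm-miR171i scored 4, with mismatches at bases 8, 9, 18 and 21.

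Predicted duplex energies with the 34 bases of MDP0000151144, computed in RNAduplex, put the sequences in nearly the same order. They were -39.5 kcal/mol for mdm-miR171c, -37.6 for mdm-miR171g, -35.9 for mdm-miR171a, -35.4 for mdm-miR171j, -33.5 for mdm-miR171f and for mdm-miR171m, and -26 for mdm-miR171i. The value for mdm-miR171o, which had no record, was -10.4. By the score mdm-miR171j paired more closely than mdm-miR171a, and by the energy the order of this pair was the other way round. Reads did not follow the closeness of pairing, as mdm-miR171g scored 0.5 and had 0 reads in A and 0 in J.

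The 2 starts can be set beside the 2 sites in the juvenile leaves, where both were measured. Of the J reads of these starts, 454 of the UUGAGCC start and 66 of the earlier one, 87.3% were of the UUGAGCC start (84.1 to 90.0). With each pair of equal counts taken once, the upstream site held 832 of 940 site counts, or 88.5% (86.3 to 90.5). The share of 91.3% in MDP0000151144 and MDP0000784909 lay close to that of the reads, and the 54.9% in MDP0000274120 and MDP0000275704 below it. Only the interval of the second share did not overlap that of the reads. With no count below 25 listed, gene models with so few counts could not show a share near that of the reads. No conclusion is therefore drawn from the lower share. In A the UUGAGCC start had 322 reads beside 85 of the earlier one, a share of 79.1% (74.8 to 83.0), and no degradome of A was analysed here.

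Sites 3 bases apart were seldom listed for other miRNAs. Of 132 combinations of a known family and a gene model, 18 had more than 1 site, and 5 had sites 3 bases apart, 4 of them of mdm-miR171 and 1 of mdm-miR3627. The 4 mdm-miR171 gene models share the same target site, with counts equal within each pair of models, so they are not separate cases. Equal counts also recur among the mdm-miR156 gene models. The mdm-miR3627 sites were bases 491 and 494 of MDP0000278575, with counts of 66 and 25, among 4 sites listed there that also took in bases 490 and 492. Every site of the 4 mdm-miR171 combinations lay opposite base 10 of a mdm-miR171 sequence. Among the 14 combinations of other families with more than 1 site this was so for 4. These were all among the 11 of mdm-miR156, whose listed sequences also differ in their start. The rest were of mdm-miR168, mdm-miR3627 and mdm-miR390. These families have 1 distinct sequence each, so their combinations could not have every site opposite base 10. No test of this difference was made.

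By its largest site count, 793, mdm-miR171 ranked 7th among the 25 known families with degradome records. Its rank by reads in J, 19th, was among all 43 known families, so these ranks cannot be set against each other. The larger counts belonged to mdm-miR160 (1661), mdm-miR858 (1555), mdm-miR167 (1375), mdm-miR172 (1112), mdm-miR164 (845) and mdm-miR393 (796), and of these mdm-miR160, mdm-miR858 and mdm-miR393 had fewer reads in J than mdm-miR171. The smallest count in the file was 25, so sites below it cannot be seen, and the depth of the degradome library is not given in the sources used here.

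**Figure D5:**
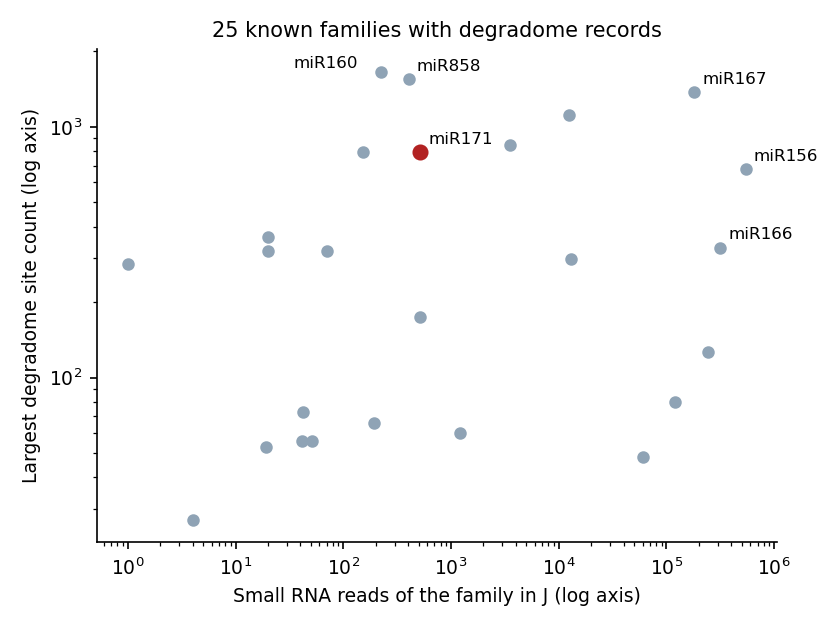
Largest degradome site count against small RNA reads in J, both on log axes, for the 25 known families with degradome records, 1 point a family. The red point is mdm-miR171, at 520 reads and a count of 793, above mdm-miR166, which has 312715 reads and a largest count of 330.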

How the data were processed

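Small RNAs of 18 to 30 nt were sequenced by the authors, who removed adapters and low-quality reads, matched reads to apple miRNAs in miRBase and deposited a raw read count without normalization for each of 380 listed sequences. A match allowed fewer than 2 mismatches, so a count may include reads that differ from the listed sequence. The deposited counts sum to 4272351 in A and 6275651 in J, with a repeated sequence counted at each of its entries. Names were joined to sequences through the study's supplementary list. The scale was the study's total of clean reads, and RPM, reads scaled to 1000000 clean reads, were computed from it. Degradome fragments were placed by the authors on the apple genome, whose build is not given in the sources used here, and paired with miRNAs in PairFinder, which gave the deposited score and site count. The site was placed at base 15 of the 31 bases in a record, since all 3 records with csite 15 open with the start codon. The site count was taken to be fragments that begin at the site, although no source used here says so.

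Names with the same sequence were joined by taking their largest count, and the family was the sum over its sequences. Intervals on shares and on the split of reads between libraries were computed in SciPy 1.17.1 under Python 3.11.15, and tested on simulated counts. The alternatives scaled the libraries otherwise, among them by TMM in edgeR 4.0.16 (R 4.3.3), joined names in other ways, or changed the limits. Duplex energies came from RNAduplex of ViennaRNA 2.7.2, and figures were drawn in matplotlib 3.10.9. All mdm-miR171 names, gene models and sites were named, with the 3 families nearest in ratio and those with sites 3 bases apart. Other families were named for the larger site counts after their values were seen. The members and lists were chosen with earlier results of these data known. No test was run because each condition had 1 library.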

Additional observations from a re-analysis of the deposited data

How the results depend on the processing

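The ratio of A over J of the mdm-miR171 family, 0.659 under clean reads, became 0.788 without scaling. It was 0.815 when scaled by the known miRNAs other than mdm-miR156 and mdm-miR535, 1.04 under TMM in edgeR, 1.06 when the median of the known sequences was fixed at 1, and 1.55 by the total of all known miRNAs. In the same order the mdm-miR171a ratio, 0.594 under clean reads, became 0.711, 0.734, 0.940, 0.957 and 1.39. That of mdm-miR171c, 1.08 under clean reads, became 1.70 under TMM, 1.73 by the median and 2.53 by the known total, and moved within its interval under the other 2 scales. The change follows from the scale itself. No mdm-miR171 sequence was called different except 1 under known miRNA totals (mdm-miR171c) and 1 with a ratio limit of 1.5 (mdm-miR171a). Summing the entries of all names, which counts shared reads repeatedly, gave mdm-miR171a 68.3% of the family in A and 78.8% in J and mdm-miR171c 28.3% and 17.9%, and left the direction of both differences as it was. The rank by reads in J was 20 with the smallest entry or with shifted sequences merged. With a site count of at least 50, 2 gene models and 4 combinations of gene model and site were left, and with at least 100, 2 gene models and 2 combinations, so no share between sites could be given for MDP0000274120 and MDP0000275704, or at 100 for any gene model. Limits on the score, and a site opposite base 10, left all 4 gene models and all 8 combinations. No paired analysis was possible because each phase had 1 small RNA library. The 6 rare sequences lie at the limit of the depth.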
